A study of Mus musculus with 6 samples.

Results

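The metallothioneins Mt1 and Mt2, the metal-sensing transcription factor Mtf1 and 7 zinc transporters of the Slc30 and Slc39 families were compared between mouse plasma cells and B cells. These 10 genes, of 18193 measured, were chosen from the plasma cell against B cell difference on the arrays described here, read together with what is known of zinc handling. Their values in that comparison are therefore given as a description, with no test. All probe sets whose annotated gene symbol was one of the 10 were taken, which gave 21 of 45037 probe sets. Mtf1 had 5 probe sets, Slc39a6 had 4, Mt1, Slc30a1, Slc30a7 and Slc39a8 had 2 each, and Mt2, Slc30a5, Slc30a6 and Slc39a7 had 1 each.

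The plasma cells were B220- CD138+ cells from the bone marrow of C57BL/6 mice, taken 7 days after a boost with KLH (keyhole limpet hemocyanin, a protein antigen). They were enriched on magnetic beads through CD138 and then sorted. The B cells were naive B220+ CD23+ cells from the spleen of C57BL/6 mice. Each group had 3 Affymetrix arrays, made from the amplified total RNA of 50000 to 70000 plasma cells or of 2000000 to 3000000 B cells. Tissue, boost, bead enrichment and cell input differed together with the cell type and cannot be told apart from it. The labels do not say that the arrays of a group came from separate mice, so errors and p-values cover only how these samples varied, and that variation may be technical.

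Metallothioneins are small proteins rich in cysteine that bind zinc and copper and buffer their free level in the cell. When zinc rises, MTF-1, the product of Mtf1, binds metal response elements in the promoters of Mt1, Mt2 and Slc30a1 and raises their transcription. Slc30 transporters (ZnT proteins) move zinc out of the cytosol, across the cell surface or into the secretory pathway and vesicles, and Slc39 transporters (ZIP proteins) move it into the cytosol from outside or from organelles. Metallothionein genes are also induced by glucocorticoids and other stress signals.

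The promoter windows of 3 genes are shown because their regulation by MTF-1 is the best known. Mt1 and Mt2 had the largest differences of the 10 genes, and Slc30a1 one of the smallest. Each window is the RefSeq sequence from 250 bases before to 50 bases after the annotated transcription start, in build GRCm38.p6, on the + strand, at chr8:94178839-94179138 for Mt1, chr8:94172368-94172667 for Mt2 and chr1:191906531-191906830 for Slc30a1. Capitals mark matches, on either strand, to the core letters of the metal response element, TGCACNC or TGCGCNC.
Mt1: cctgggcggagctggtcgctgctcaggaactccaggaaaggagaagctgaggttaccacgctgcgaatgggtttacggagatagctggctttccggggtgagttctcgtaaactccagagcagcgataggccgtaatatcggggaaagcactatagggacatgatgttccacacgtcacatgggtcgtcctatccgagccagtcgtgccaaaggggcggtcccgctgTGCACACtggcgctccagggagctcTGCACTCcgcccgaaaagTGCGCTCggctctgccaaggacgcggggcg
Mt2: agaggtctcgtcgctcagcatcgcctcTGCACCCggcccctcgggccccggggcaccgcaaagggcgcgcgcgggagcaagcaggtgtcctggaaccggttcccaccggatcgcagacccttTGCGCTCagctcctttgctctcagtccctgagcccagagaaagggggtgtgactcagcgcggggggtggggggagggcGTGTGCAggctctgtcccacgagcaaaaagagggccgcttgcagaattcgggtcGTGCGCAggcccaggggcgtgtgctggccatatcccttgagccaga
Slc30a1: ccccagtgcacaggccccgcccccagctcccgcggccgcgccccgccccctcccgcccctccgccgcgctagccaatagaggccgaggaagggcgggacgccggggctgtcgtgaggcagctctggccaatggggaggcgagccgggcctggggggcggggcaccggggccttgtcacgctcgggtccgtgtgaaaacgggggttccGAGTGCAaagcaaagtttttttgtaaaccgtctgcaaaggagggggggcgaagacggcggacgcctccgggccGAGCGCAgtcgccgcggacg

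The Mt1 window held 3 matches to the metal response element core, starting at -23, +3 and +21 relative to the annotated start. The Mt2 window held 4, starting at -223, -128, -50 and +5, the last 2 on the opposite strand. The Slc30a1 window held 2, at -43 and +31, both on the opposite strand. Of all 32851 RefSeq promoter windows of this length, 25.7% held at least 1 match, 7.11% at least 2, 1.97% at least 3 and 0.517% at least 4. RefSeq windows were found for 9 of the 10 genes, 10 windows in all, since Slc39a8 had 2 starts. Slc30a5 and the second start of Slc39a8 held 1 match each, and the windows of Mtf1, Slc30a6, Slc30a7 and Slc39a7 and the first start of Slc39a8 held none. Slc39a6 had no window in the table used. The same windows were searched on both strands for TGACGTGG, the core letters of the unfolded protein response element that XBP1 binds, which 0.676% of all windows held. Slc30a5 had 1 such match, starting at +7, and the other 9 windows had none. The endoplasmic reticulum stress response element, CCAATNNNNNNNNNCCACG, was in none of the 10 windows and in 0.119% of all windows. No matches of different motifs overlapped. A match describes letters and does not show that a factor binds there. Positions hold for the annotated start alone. Bases outside the windows were not searched, so a gene may have more such elements than are counted here.

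**Figure D1:**
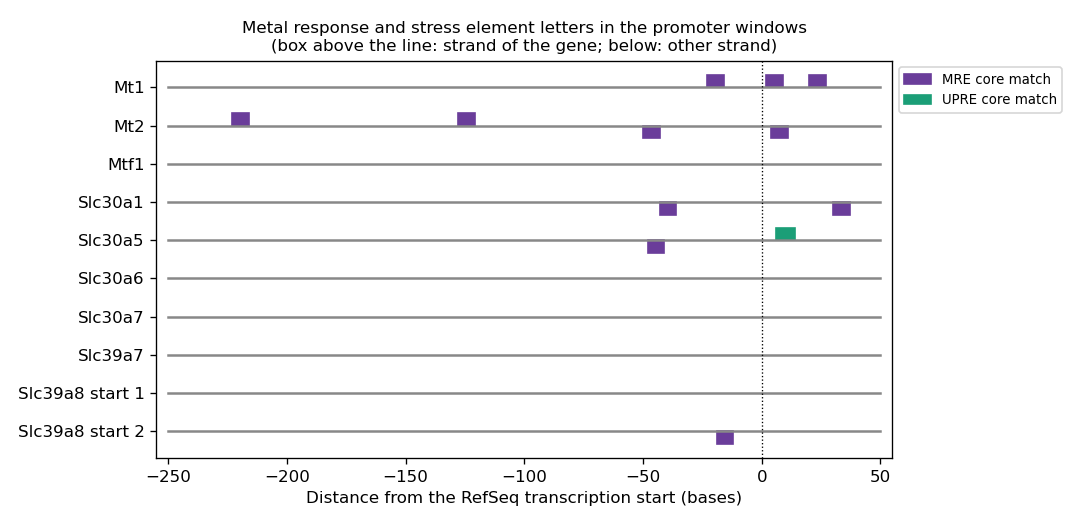
Positions of motif matches in the RefSeq promoter windows of 9 of the 10 genes, as distance in bases from the annotated start (dotted line). Purple boxes are metal response element (MRE) core matches, 4 in Mt2 and 3 in Mt1, and the green box is the single unfolded protein response element (UPRE) core match, in Slc30a5.

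Values below are the deposited intensities of each probe set, on a linear scale, and fold changes are differences of log2(intensity + 16) between plasma cells and B cells with the standard error (SE) of a limma fit over all probe sets or genes. The pseudocount of 16 makes the fold of a dim probe set smaller. A probe set was taken as over background on an array where it exceeded the 95th percentile of 27 bacterial control probe sets, which lay between 23.0 and 41.8 on the 6 arrays. For a gene with several probe sets, the gene value is that of the one with the highest mean log2(intensity + 16). Levels of different probe sets cannot be compared with each other. In bulk samples such as these, fewer cells of a type and less RNA per cell cannot be told apart.

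In plasma cell and follicular B cell markers the groups matched their labels, but B cell array 1 stood apart. Markers of other cells on that array are given below. Of the plasma cell markers, 7 of 7 were higher in plasma cells, and of the follicular B cell markers 8 of 8 measured were lower (limma, adjusted p under 0.05). Correlations between arrays were 0.9845 to 0.9888 among plasma cell arrays and 0.9918 between B cell arrays 2 and 3, against 0.9258 to 0.9334 between B cell array 1 and the other B cell arrays. The median intensity was 130.0 on B cell array 1 and 86.7 to 95.1 on the others. Xist, the transcript that silences an X chromosome in female cells, read 8702, 8070 and 8244 on the plasma cell arrays, and in B cells it read 8408 on array 1 but 30.8 and 18.1 on arrays 2 and 3. The Y-linked Kdm5d read 1507 and 1576 on B cell arrays 2 and 3 and was within background on the other 4 arrays. Comparisons without B cell array 1 therefore also set Xist-positive against Xist-negative samples, and the counts below, with the values that this array moved, are given with and without it.

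The metallothioneins were near background in B cells and bright in plasma cells. Mt1, read by probe set 1422557_s_at, had intensities of 5069, 3968 and 4526 on the plasma cell arrays, against 35.0, 38.6 and 62.7 on the B cell arrays. The lowest plasma cell array was far above the highest B cell array, and B cell array 1 was within background. The group means were 4521 ± 550 in plasma cells and 45.4 ± 15.0 in B cells (SD, n = 3 each), a log2 difference of 6.23 ± 0.21 (SE), or 74.9-fold on the pseudocount scale. The suffix _s_at marks probes that can match related transcripts, so part of this signal could come from another family member. The second Mt1 probe set, 1451612_at, which has no such suffix, read 718, 403 and 562 in plasma cells, against 8.74, 8.69 and 7.38 in B cells. All 3 B cell values were within background, and Mt1 was at least 19.04-fold higher in plasma cells by this probe set.

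Mt2 (1428942_at), which encodes the other metallothionein found in most tissues, read 6935, 6181 and 6631 in plasma cells, against 46.3, 91.3 and 85.0 in B cells. All 6 values were over background and the groups were far apart. Means were 6582 ± 379 in plasma cells and 74.2 ± 24.4 in B cells (SD, n = 3 each), a log2 difference of 6.23 ± 0.23 (SE), or 75.1-fold. Without B cell array 1 the log2 difference was 6.11 ± 0.20 for Mt1 and 5.99 ± 0.10 for Mt2. By these probe sets both genes thus differed by the same amount within their errors, with or without that array. The second Mt1 probe set, within background in B cells, gave a smaller log2 difference of 4.534 ± 0.225 (SE). The errors do not cover this difference between probe sets.

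**Figure D2:**
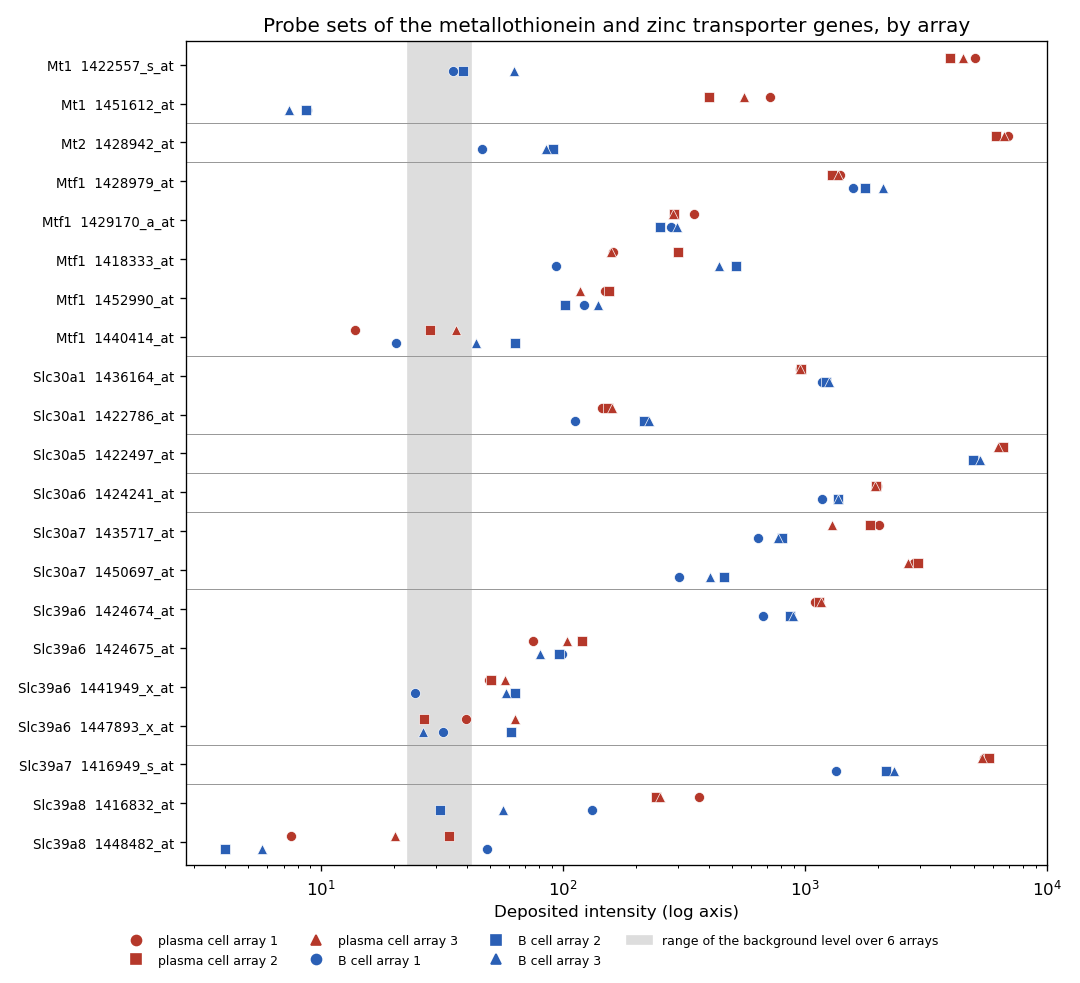
Deposited intensity (log axis) of all 21 probe sets of the 10 genes on each of the 6 arrays, plasma cells in red and B cells in blue, with the range of the background level shaded. Mt1 and Mt2 separate the groups most widely, while 9 of the 21 probe sets, among them 4 of the 5 for Mtf1, overlap between groups.

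Mtf1, the zinc sensor that drives metallothionein transcription, was not higher in plasma cells by its brightest probe set. That probe set (1428979_at) read 1402, 1300 and 1372 in plasma cells, against 1588, 1767 and 2108 in B cells. All plasma cell arrays were below all B cell arrays, with a log2 difference of -0.41 ± 0.15 (SE), and -0.50 ± 0.11 without B cell array 1. The other 4 Mtf1 probe sets overlapped between groups, with log2 differences of 0.15 (1429170_a_at), -0.49 (1418333_at), 0.19 (1452990_at) and -0.45 (1440414_at). B cell array 1 set the size for 1418333_at, which read 160, 299 and 158 in plasma cells, against 93.4, 520 and 440 in B cells. Without that array its log2 difference was -1.22 ± 0.30.

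Slc30a1 encodes ZnT1, the zinc exporter of the cell surface. Its brighter probe set (1436164_at) read 958, 967 and 959 in plasma cells, against 1174, 1219 and 1255 in B cells. The groups did not overlap, and the plasma cell arrays were lower by a small step, with a log2 difference of -0.33 ± 0.11 (SE) with all arrays and -0.36 ± 0.08 without B cell array 1. The second probe set (1422786_at) read 145, 154 and 160 in plasma cells, against 113, 216 and 228 in B cells, and B cell array 1 lay below the plasma cell arrays.

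Of the 3 transporters that load the early secretory pathway with zinc, Slc30a7 had the largest difference between the groups and Slc30a5 the smallest. ZnT5 and ZnT6, the products of Slc30a5 and Slc30a6, work as a pair. Slc30a5 (1422497_at) read 6503, 6605 and 6315 in plasma cells, against 5087, 4971 and 5298 in B cells, a log2 difference of 0.34 ± 0.11 (SE), and 0.33 ± 0.08 without B cell array 1. Slc30a6 (1424241_at) read 1989, 1959 and 1946 in plasma cells, against 1182, 1374 and 1376 in B cells, a log2 difference of 0.58 ± 0.12 (SE), and 0.51 ± 0.08 without B cell array 1. Neither gene's groups overlapped, and both differences were under 1.5-fold.

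Slc30a7 encodes ZnT7, which brings zinc into the Golgi. Its probe set 1435717_at read 2032, 1866 and 1297 in plasma cells, against 639, 801 and 778 in B cells, a log2 difference of 1.19 ± 0.21 (SE), or 2.28-fold. The second probe set, 1450697_at, read 2825, 2927 and 2673 in plasma cells, against 302, 463 and 406 in B cells, a log2 difference of 2.82 ± 0.19 (SE), or 7.05-fold. Both probe sets separated the groups in the same direction but disagreed on the size, also without B cell array 1 (log2 differences of 1.09 and 2.65).

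Slc39a7 encodes ZIP7, which releases zinc from the endoplasmic reticulum and which B cell development requires. It read 5503, 5783 and 5404 in plasma cells, against 1341, 2160 and 2329 in B cells (1416949_s_at). As for Mt1, the suffix _s_at marks probes that can match related transcripts, and Slc39a7 had no other probe set. The groups did not overlap, and B cell array 1 was the lowest. The log2 difference was 1.55 ± 0.23 (SE), or 2.93-fold, and 1.30 ± 0.09 without B cell array 1.

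Slc39a8 encodes ZIP8, an importer of zinc and manganese at the cell surface and in lysosomes. Its brighter probe set (1416832_at) read 366, 242 and 251 in plasma cells, against 132, 31.1 and 56.4 in B cells. The groups did not overlap, but B cell array 1 was more than 2-fold above the other B cell arrays. The log2 difference was 1.90 ± 0.44 (SE), or 3.73-fold, and 2.35 ± 0.27 without that array. The other probe set (1448482_at) was over background on 1 array of each group and overlapped, at 7.49, 33.7 and 20.2 in plasma cells and 48.3, 4.01 and 5.71 in B cells.

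Slc39a6, which encodes the surface importer ZIP6, was only slightly higher in plasma cells. Its brightest probe set (1424674_at) read 1107, 1144 and 1165 in plasma cells, against 671, 870 and 894 in B cells, without overlap. The log2 difference was 0.49 ± 0.15 (SE), and 0.36 without B cell array 1. Its other 3 probe sets overlapped between groups, with log2 differences of 0.08 (1424675_at), 0.14 (1441949_x_at) and 0.09 (1447893_x_at).

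In the order of their gene-level log2 differences the 10 genes ran from Mt2 and Mt1 (both 6.23) through Slc39a8 (1.90), Slc39a7 (1.55), Slc30a7 (1.19), Slc30a6 (0.58), Slc39a6 (0.49) and Slc30a5 (0.34) to Slc30a1 (-0.33) and Mtf1 (-0.41). The genes were chosen on this contrast, so the order and its gaps are a description with no test. Neighbours from Slc39a8 down to Slc30a7, and from Slc30a6 down to Slc30a5, lay within 2 standard errors of each other. These errors do not cover the choice of probe set. With each gene's probe sets averaged, Slc30a7 (2.00) stood above Slc39a8 (1.05). Of the 10 genes 6 passed an adjusted p of 0.05 as higher in the limma fit over all genes, beside 17.6% of all genes, and 0 passed as lower, beside 12.3% (8 higher and 2 lower at an unadjusted p under 0.05). Since the genes were chosen on this contrast, nothing is read from those shares. By probe set, 8 of 21 passed as higher, beside 13.4% of all probe sets, and 0 as lower, beside 12.8%. The groups did not overlap in 10 of 10 genes and 12 of 21 probe sets, beside 47.8% of all genes and 45.4% of all probe sets. Of the 10 genes 9 were over background on all 6 arrays, and the exception was Mt1, on B cell array 1. Without B cell array 1 the count was 8 higher, beside 22.7% of all genes, and 2 lower, beside 21.1%, the lower ones being Mtf1 and Slc30a1. It was 4 higher without plasma cell array 1, 2 or 3. The median log2 difference was 0.89 over the 10 genes and -0.06 over all genes.

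The other 20 genes of the 2 transporter families and the metallothioneins were all measured. The share of them that passed the test was near or below that of all genes. They are what was left after the chosen genes were picked on this same contrast. That choice partly set their share, so nothing is read from it about the families. By limma over all genes, 4 of these 20 were higher and 1 lower in plasma cells at a Benjamini-Hochberg adjusted p of 0.05. The shares of all genes were 17.6% and 12.3%, and 15 of the 20 did not pass. The list median was -0.02. Without B cell array 1 the count was 4 higher and 5 lower, beside 22.7% and 21.1% of all genes, and the median was 0.03. Mt3 and Mt4, metallothioneins of brain and of squamous epithelium, did not pass, and Mt4 was within background on all 6 arrays, as was Slc30a10.

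Slc39a11, which encodes the intracellular ZIP11, rose furthest on this list. It read 2742, 2776 and 2227 in plasma cells, against 57.3, 106 and 122 in B cells, a log2 difference of 4.59 ± 0.27 (SE; limma adjusted p = 0.000135), and 4.32 ± 0.14 without B cell array 1. Slc39a4, which encodes ZIP4, the intestinal zinc importer mutated in human acrodermatitis enteropathica, read 689, 685 and 604 in plasma cells, against 29.5, 32.6 and 27.9 in B cells. Its log2 difference was 3.87 ± 0.12 (SE; limma adjusted p = 3.09e-05), or 14.7-fold, and 3.87 ± 0.11 without B cell array 1. The B cell arrays were close to background, and 2 of the 3 were over it.

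Slc39a14 encodes ZIP14, a carrier of zinc, manganese and iron. It read 1195, 1130 and 1100 in plasma cells, against 89.4, 218 and 211 in B cells (1427035_at), a log2 difference of 2.71 ± 0.33 (SE; limma adjusted p = 0.00185), and 2.33 ± 0.09 without B cell array 1. Its other 3 probe sets were higher in plasma cells too. Log2 differences were 1.51 for 1438490_at and 1.07 for 1425649_at, and 1457770_at, within background on all B cell arrays, was at least 2.29-fold higher. Slc39a9, which encodes ZIP9 of the Golgi and cell surface and is named here after its values were seen, read 2792, 2834 and 2714 in plasma cells, against 1249, 1467 and 1520 in B cells, a log2 difference of 0.97 ± 0.13 (SE; limma adjusted p = 0.00247), and 0.89 ± 0.08 without B cell array 1. The call for Slc39a9 was lost when its 3 probe sets were averaged (log2 difference 0.33, limma adjusted p = 0.124).

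Slc39a10 was the only gene of this list that passed as lower with all arrays. It encodes ZIP10, a surface importer that mouse B cells use for survival and receptor signalling, and it read 688, 618 and 741 in plasma cells, against 1484, 1455 and 1437 in B cells. The log2 difference was -1.08 ± 0.12 (SE; limma adjusted p = 0.0014), and -1.07 without B cell array 1. Another probe set, 1439041_at, read 131, 154 and 132 in plasma cells, against 332, 165 and 171 in B cells. It did not pass (log2 difference -0.56, limma adjusted p = 0.205), and its log2 difference was -0.25 without B cell array 1. Surface importers outside the chosen genes thus differed in both directions, with Slc39a4 and Slc39a14 higher and Slc39a10 lower in plasma cells. Slc39a1 and Slc39a3, surface importers named after their values were seen, did not pass with all arrays (limma adjusted p = 0.638 and 0.465).

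**Figure D3:**
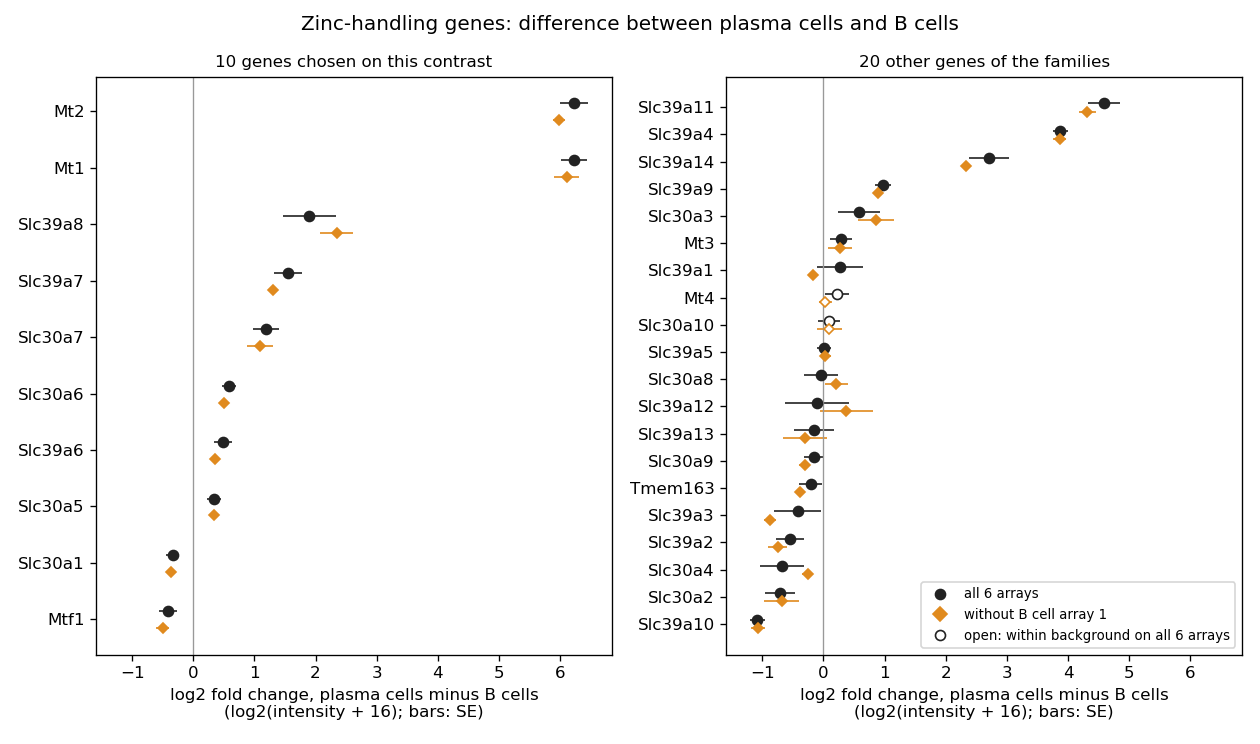
Log2 difference of each gene between plasma cells and B cells, in log2(intensity + 16), for the 10 chosen genes (left) and 20 other family genes (right), with bars for the SE. Black circles use all 6 arrays and orange diamonds leave out B cell array 1. Mt1 and Mt2 lie near 6.2, Slc39a11 at 4.59 and Slc39a10 at -1.08.

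Of 8 other genes that MTF-1 is known to act on, 1 was higher and 1 lower in plasma cells, beside 17.6% and 12.3% of all genes, with a list median of -0.02. Csrp1, which encodes a LIM domain protein, read 970, 892 and 876 in plasma cells, against 288, 340 and 309 in B cells (log2 difference 1.502, limma adjusted p = 0.000444). Ndrg1, a stress-responsive gene, read 90.7, 67.6 and 204 in plasma cells, against 474, 515 and 551 in B cells (log2 difference -2.08, limma adjusted p = 0.00773). The groups did not overlap for either gene. Without B cell array 1 the count was 2 higher and 1 lower with a median of -0.09, and without B cell array 2 it was 1 higher and 2 lower.

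Among enzymes and chaperones of the secretory pathway that bind zinc, 4 of 12 measured were higher and 2 lower, beside 17.6% and 12.3% of all genes, with a list median of 0.12. The count was again 4 higher and 2 lower without B cell array 1, with a median of 0.18. Alpl, the tissue-nonspecific alkaline phosphatase that takes up its zinc in the secretory pathway, read 1694, 2215 and 1402 in plasma cells, against 143, 112 and 110 in B cells (log2 difference 3.68, limma adjusted p = 0.000127). Erp44, which encodes a zinc-regulated chaperone that returns client proteins to the endoplasmic reticulum, read 8028, 8227 and 7567 in plasma cells, against 2494, 2487 and 2734 in B cells (log2 difference 1.62, limma adjusted p = 0.000269). Both genes separated the groups. Pigg was higher by 0.71 (limma adjusted p = 0.0455), while Pign and Adam17 had log2 differences of -0.48 (limma adjusted p = 0.0348) and -0.45 (limma adjusted p = 0.0386). Pigg and Pign encode enzymes of glycosylphosphatidylinositol anchor synthesis and Adam17 a protease that sheds surface proteins. The count was 2 higher and 0 lower without plasma cell array 1 or 2 or B cell array 3, and 3 higher and 0 lower without plasma cell array 3 or B cell array 2. The calls for Pigg, Pign and Adam17 were lost under other settings, with adjusted p up to 0.151 for Pigg, 0.353 for Pign and 0.439 for Adam17.

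Copper and iron genes were set beside the zinc genes because metallothioneins and several ZIP proteins also bind or carry these metals. Of 10 copper genes 5 were higher in plasma cells and 0 lower (also 5 and 0 at an unadjusted p under 0.05), beside 17.6% and 12.3% of all genes, with a list median of 0.41. Slc31a1, the copper importer CTR1, read 2217, 2236 and 2086 in plasma cells, against 583, 453 and 428 in B cells (log2 difference 2.14, limma adjusted p = 0.000282). Ccs, the chaperone that hands copper to superoxide dismutase, and Slc31a2, which encodes CTR2, had log2 differences of 1.62 (limma adjusted p = 0.00451) and 1.15 (limma adjusted p = 0.0105). The count was 5 higher and 1 lower without B cell array 1, again with a median of 0.41. It was 4 higher and 0 lower without any other single array, and 3 higher with the mean of each gene's probe sets, where the calls for Atox1 and Cox17, both copper chaperones and named after their values were seen, were lost (highest adjusted p over all settings 0.35 and 0.826).

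Of 11 iron genes measured, 3 were higher and 2 lower, beside 17.6% and 12.3% of all genes, with a list median of -0.26. Hmox1, the heme oxygenase that frees iron from heme, read 420, 466 and 479 in plasma cells, against 91.1, 72.8 and 59.3 in B cells (log2 difference 2.39, limma adjusted p = 0.000249). Slc25a37, the mitochondrial iron importer mitoferrin-1, read 563, 529 and 721 in plasma cells, against 3139, 3298 and 3326 in B cells (log2 difference -2.41, limma adjusted p = 0.000181). Slc11a2, the divalent metal transporter DMT1, was higher by 1.15 (limma adjusted p = 0.00708), a call lost when its probe sets were averaged (limma adjusted p = 0.0611). Aco1 and Ireb2, the iron regulatory proteins, had log2 differences of 1.03 (limma adjusted p = 0.0454) and -0.39 (limma adjusted p = 0.0472), and leaving out any array except B cell array 1 ended both calls, with adjusted p up to 0.14 for Aco1 and 0.521 for Ireb2 over the settings tried. Without B cell array 1 the count was 5 higher and 3 lower with a median of -0.12, and without any other single array it was 2 higher and 1 or 2 lower.

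Genes that respond to glucocorticoids or to stress were counted because such signals also induce metallothioneins. Of 8 glucocorticoid-responsive genes 0 were higher and 2 lower by limma (0 and 4 at an unadjusted p under 0.05), beside 17.6% and 12.3% of all genes. The list median was -0.31, and -0.39 without B cell array 1, where the count was again 0 and 2. Klf9 read 90.2, 135 and 135 in plasma cells, against 481, 335 and 275 in B cells (log2 difference -1.46, limma adjusted p = 0.00756), and Sgk1 had a log2 difference of -1.73 (limma adjusted p = 0.0392). The count was 1 lower without plasma cell array 1 or 2 or B cell array 2 or 3, where the Sgk1 call was lost, and 4 lower without plasma cell array 3. Of 11 immediate early and heat shock genes, which respond to cell handling as well as to stress, 3 were higher and 0 lower by limma (also 3 and 0 at an unadjusted p under 0.05), beside the same shares of all genes. The list median was 0.23, and it turned to -0.43 without B cell array 1, where 4 were higher and 0 lower. Fosb read 3002, 728 and 6651 in plasma cells, against 75.8, 178 and 268 in B cells, and Jun read 5895, 2377 and 7892 in plasma cells, against 960, 1100 and 1302 in B cells. Limma's adjusted p was 0.0194 for Fosb, 0.0168 for Jun and 0.00338 for Fos. Without plasma cell array 1, or without B cell array 2, 1 of the 11 was higher, and the calls for Fosb and Jun were lost. Fos, Fosb and Jun were lowest on plasma cell array 2, and so were Mt1 and Mt2, by smaller steps. The highest array differed, being plasma cell array 3 for Fos, Fosb and Jun and plasma cell array 1 for Mt1 and Mt2. Whether these signals have a part in the metallothionein difference was not tested.

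**Figure D4:**
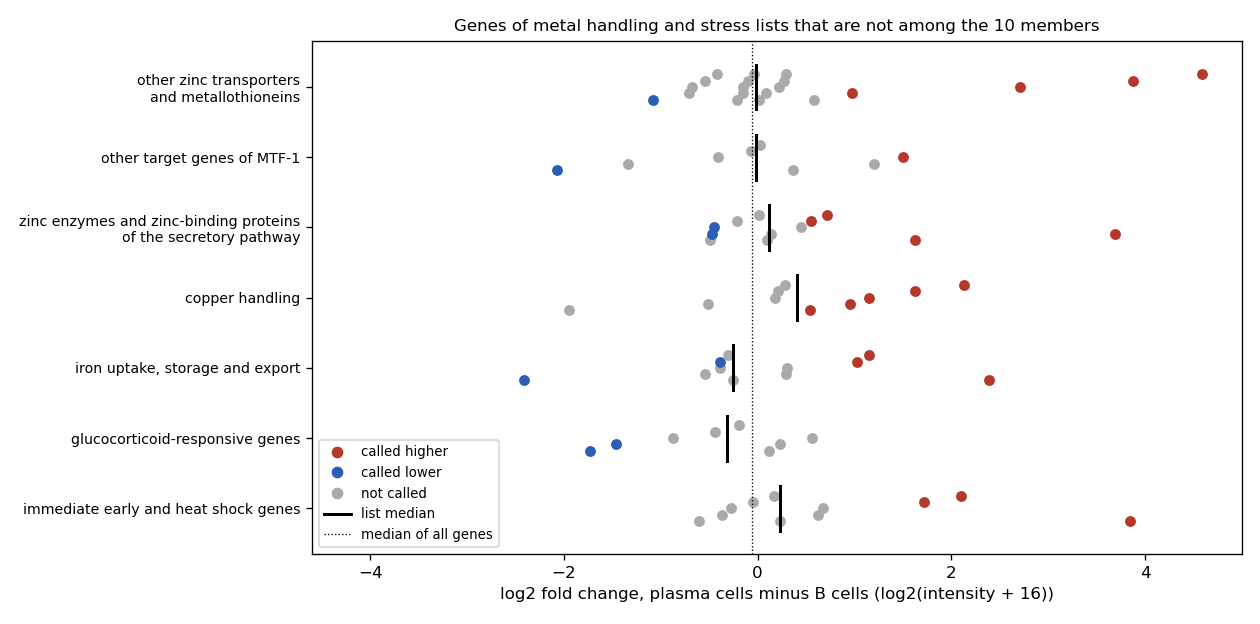
Log2 difference between plasma cells and B cells, in log2(intensity + 16), of each measured gene in 7 lists outside the 10 chosen genes. Red and blue points passed an adjusted p of 0.05 as higher and lower, grey points did not, bars mark list medians and the dotted line the median of all genes (-0.06). The copper list has 5 red points and no blue one.

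Markers of other cells that a marrow or spleen sort could carry were measured beside these results. The summed intensity of 8 granulocyte markers was 8468, 19970 and 14715 on the plasma cell arrays, and 12561, 2788 and 1797 on the B cell arrays. The sum of 5 erythroid markers was 390, 543 and 213 in plasma cells, and 1412, 82.1 and 107 in B cells. Without Slc4a1, its brightest gene, it was 113.5, 215.6 and 70.0 in plasma cells, and 254, 63.7 and 69.3 in B cells. On B cell array 1 the granulocyte sum lay within the range of the plasma cell arrays, and the erythroid sum was the highest of the 6 arrays. Mt1 and Mt2 read 35.0 and 46.3 there. This is 1 array, and what such cells add to the Mt1 and Mt2 values was not tested. By limma 1 of the 8 granulocyte markers, Mpo, was higher in plasma cells with all arrays (adjusted p = 0.0139), 6 without B cell array 1, and 0 without plasma cell array 2 or 3. Background adds to every sum, so a sum above 0 does not by itself show that such cells were there.

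The other marker lists were summed with and without the brightest gene of each. The sum of 11 T and NK cell markers was 1679 to 2719 in plasma cells and 7361 to 10404 in B cells. On B cell arrays 2 and 3 it was mostly Cd2, which mouse B cells also express. Without Cd2 it was 1071, 1100 and 1977 in plasma cells, against 5687, 408 and 451 in B cells. Cd4 was at least 13.4-fold higher in plasma cells (limma adjusted p = 0.000123) and within background on all B cell arrays. Cd3e and Cd3g, chains of the T cell receptor, read highest of all arrays on B cell array 1, at 1966 and 577. With all arrays they did not pass (limma adjusted p = 0.732 and 0.693). Without B cell array 1 they were higher in plasma cells (limma adjusted p = 0.00902 and 0.00429). The sum of 9 monocyte and macrophage markers was 16709 to 17897 in plasma cells and 16508 to 17784 in B cells, mostly Ctss, and without Ctss it was 2275 to 3185 in plasma cells and 3788 to 5894 in B cells. In that list Lyz2 (-2.21), Adgre1 (-2.19) and Csf1r (-1.70) were lower and Cd68 (1.75) was higher in plasma cells, in log2 differences that passed limma's adjusted p of 0.05, a call that Csf1r lost without any single array other than plasma cell array 3 (adjusted p = 0.0772 without B cell array 1). The sum of 9 stromal and endothelial markers was 1137 to 1274 in plasma cells and 1473 to 2027 in B cells, and without Pecam1, its brightest gene, it was 684 to 870 in plasma cells and 344 to 806 in B cells. In that list Cdh5 was higher (log2 difference 2.24, limma adjusted p = 0.000396) and Pecam1 lower in plasma cells (log2 difference -1.44, limma adjusted p = 0.00061). The other 7 genes did not pass. The part of granulocytes, erythroid, T, monocyte and stromal cells in the zinc gene results was not tested.

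Many genes followed Mt1 and Mt2 across the arrays. Among 3023 genes with a mean intensity of at least 100 and a log2 difference of at least 1 in size, 585 had a Pearson correlation over 0.99 with Mt1 and 608 with Mt2 in log2(intensity + 16) over the 6 arrays. The arrays form 2 groups, so these correlations mostly restate the group difference and carry no test. Closest to Mt1 were Kcnn4, which encodes a calcium-activated potassium channel (r = 0.99974), Usp2, Vps26b, Gstt2 and Fbxo44. Kcnn4 read 10136, 9562 and 9758 in plasma cells, against 777, 842 and 984 in B cells. Closest to Mt2 were Snap47 (r = 0.9999), Farp2, Uck2, Xbp1 and Gmppa. Xbp1, the transcription factor of the secretory programme of plasma cells, read 14706, 14810 and 14493 in plasma cells, against 1715, 2190 and 2217 in B cells.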

How the data were processed

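Affymetrix arrays of 3 plasma cell and 3 B cell samples were used. Deposited values are linear intensities, 1 for each probe set on each array. The authors' probe summarisation, background correction and normalization are not given in the sources used here. Per the labels' protocols, RNA from a column kit was amplified with NuGEN Ovation V2. The number of arrays limits the precision.

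Of 45101 probe sets, 64 controls were left out. The platform annotation gave 1 symbol for 34945 probe sets, several for 932 and none here for 9160, and 34741 were updated through Entrez identifiers against RefSeq. Of the sample columns, 0 were unmatched. The analysis took log2(intensity + 16) and ran limma 3.58.1 in R 4.3.3 (lmFit, eBayes without trend, Benjamini-Hochberg adjustment over all genes or probe sets, threshold 0.05), with 1 probe set per gene (18193 genes). It was tested on simulated data. Alternatives were other pseudocounts, centrings, filters, weights, probe set rules, a replicate block and leaving out each array.

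The 10 genes and all lists were chosen with earlier results of these data known. Named genes outside the 10 were, per list, up to 3 called higher and up to 3 called lower with the largest differences, and for Mt1 and Mt2 the 5 most correlated genes.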

Additional observations from a re-analysis of the deposited data

How the results depend on the processing

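All 10 gene differences kept their direction under every alternative run that held the gene. Of 159 gene values 144, and of 330 probe set values 320, moved by less than the spread between replicates. Both counts include runs that leave these log2 differences as they were, namely the eBayes trend, the replicate block and the filter on dim probe sets. For single probe sets the probe set rules change no value either. The counts therefore overstate how stable the values were. Slc39a7, whose only probe set has the suffix _s_at, was absent from the run without such probe sets. Mt1 ranged over log2 differences of 4.53 (without probe sets whose probes match several transcripts) to 6.65 (pseudocount 1), Mt2 over 5.60 to 6.51, Slc30a7 over 1.06 to 2.00 and Slc39a8 over 1.05 (mean of its probe sets) to 2.54. Counts of genes lower in plasma cells depended on B cell array 1. The count was 2246 with all arrays, 3830 without B cell array 1, 4531 with array weights (B cell array 1 had the weight 0.1055), 1243 after median centring, 1347 with plasma cell array 1 left out and 1369 with plasma cell array 2 left out. The cause was not tested. Median centring moved the median log2 difference of all genes to 0.06, against -0.06. Probe sets lower in plasma cells numbered 5761, against 3521 after median centring and 11396 with array weights, which also gave 9645 probe sets higher (6036 without weights). Of the 10 genes, 0 passed as lower in the analysis reported, 1 with a pseudocount of 64 or quantile normalization, and 2 with a filter on dim probe sets, array weights or an eBayes trend. Of the 20 other family genes, 6 were lower with array weights. Leaving out single arrays gave 2224 to 4121 genes higher and 1347 to 3830 lower, 4012 to 8155 probe sets higher and 3236 to 9331 lower, 4 of the 20 other family genes higher and 1 to 5 lower, and 4 to 8 of the 10 genes higher and 0 to 2 lower. The labels give both groups replicate numbers, but deviations of same-numbered arrays correlated by only 0.0484, 0.00469 and 0.0458. A replicate block gave 2457 genes higher and 1664 lower, 4516 probe sets higher and 4140 lower, 4 and 1 of the other family genes, and 5 and 0 of the 10. Signals within background limit what can be said of Mt4, Slc30a10 and the dim Slc39a8 probe set.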

Other observations

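B cell array 1 differed from the other B cell arrays at several family genes outside the 10, all named here after their values were seen. Slc30a4, which encodes the vesicular zinc transporter ZnT4, read 1078, 1124 and 991 in plasma cells and 3081 on B cell array 1, against 1266 and 1287 on B cell arrays 2 and 3. Slc39a1, which encodes the surface importer ZIP1, read 2759, 2858 and 2976 in plasma cells and 1275 on B cell array 1, against 3252 and 3206 on the other B cell arrays. Its log2 difference was 0.27 with all arrays and -0.17 without B cell array 1. Without that array Slc30a9, Slc39a2, Slc39a3 and Tmem163 joined Slc39a10 as lower in plasma cells, with limma adjusted p of 0.0392, 0.017, 0.00226 and 0.0147.

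The probe sets of Slc39a3, which encodes the surface importer ZIP3, disagreed in direction. One (1417881_at) read 134, 134 and 119 in plasma cells, against 88.3, 237 and 262 in B cells. The other (1417882_at) read 203, 176 and 194 in plasma cells, against 120, 122 and 105 in B cells, with no overlap between groups.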
